A study of Caenorhabditis elegans with 4 samples.

Results

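The SMC-6 peaks of chromosome II of Caenorhabditis elegans were taken as every peak that the authors' series-wide list places on II, 515 of 3392 peaks in that list. Of the 3380 peaks on the 6 nuclear chromosomes, II held 15.2% (exact 95% interval 14.0 to 16.5%). Peaks on II were also taken from the list of each chromatin immunoprecipitation (ChIP) library, 337 in replicate 1 and 205 in replicate 2, and were used for support. In ChIP followed by sequencing, a peak is a stretch of genome whose DNA is recovered with an antibody more often than its surroundings.

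The embryos were wild-type N2, the standard laboratory strain, of mixed stages and of both sexes, from cultures at 20 °C, and no sample carried another genotype or treatment. SMC-6 was recovered with a rabbit polyclonal antibody that had been affinity-purified. There were 2 ChIP libraries and 2 input libraries of DNA taken before the antibody step. No peak list or signal of the inputs was analysed here. Signal from different embryonic cells and stages was pooled, and the labels do not tell whether the replicates were separate cultures.

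SMC-6 pairs with SMC-5 in a ring-shaped ATPase complex of the same family as cohesin and condensin. The complex helps to repair broken DNA by recombination and to resolve joined DNA molecules left by replication, and in the worm it is needed for intact chromosomes in the germ line. Worm chromosomes have no single centromere. Their arms recombine more often, carry more repeats and more repressive chromatin, and touch the nuclear envelope more than their gene-dense centres.

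Every score below is the authors' own value from the peak caller, read here as higher for a stronger call. Its scale is not stated, and it differs between the series-wide list (1.48 to 271 on II) and the replicate lists (from 50.04 upwards), so scores were read only within a list. With 2 ChIP libraries and 1 chromosome no test over samples was possible, and differences are given as measured. Intervals are exact binomial (Clopper-Pearson) intervals that treat peaks as independent and cover counting error only. Read depth is unknown from peak lists. The replicate lists came from the peak caller MACS and the series-wide list from MACS v2. What this changes in counts, widths, gaps or overlap between the lists was not tested.

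Chromosome II had 33.7 series-wide peaks per Mb over 15.3 Mb, against 24.3 on V and 40.4 on I, the lowest and highest of the other nuclear chromosomes. Replicate 1 had 22.1 peaks per Mb on II and replicate 2 had 13.4. The peaks covered 1.23% of II as listed series-wide, 1.08% as listed in replicate 1 and 0.744% as listed in replicate 2. In the series-wide list the median width on II was 260 bp, with an interquartile range of 189 to 391.5 bp. The other nuclear chromosomes had median widths between 259 and 277.5 bp. The median score on II was 6.98, and those of the others lay between 5.93 and 7.335. In that list II thus lay within the range of the others in both. In each replicate list its median score lay above those of the others. Its median score was 101.65 in replicate 1, against 79.6 to 100.4 elsewhere, and 181 in replicate 2, against 134.3 to 158.8. The median width on II was 315 bp in replicate 1 (262 to 314 bp elsewhere) and 453 bp in replicate 2 (428 to 458 bp elsewhere). These differences between chromosomes were not tested.

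To describe its arms and centre, II was divided into 3 parts of equal length at positions 5093125 and 10186250. The series-wide list had 151 peaks in the left arm, 165 in the centre and 199 in the right arm, or 29.6, 32.4 and 39.1 peaks per Mb. With peaks under 1 kb apart counted as 1, it had 124, 147 and 147, or 24.3, 28.9 and 28.9 per Mb. Centre and right arm were then level. Replicate 1 had 141, 67 and 129 peaks in the same parts, or 27.7, 13.2 and 25.3 per Mb. Replicate 2 had 40, 84 and 81, or 7.85, 16.5 and 15.9 per Mb. Replicate 1 was thus densest in the left arm, where replicate 2 was sparsest.

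The libraries parted in the left arm and the centre. Of the II peaks of replicate 1, 41.8% (36.5 to 47.3%) lay in the left arm, and of those of replicate 2 19.5% (14.3 to 25.6%). The right arm held nearly the same share in both, 38.3% (33.1 to 43.7%) and 39.5% (32.8 to 46.6%). The share of the centre was 19.9% (15.8 to 24.5%) in replicate 1 and 41.0% (34.2 to 48.04%) in replicate 2. On the other 5 nuclear chromosomes the left part took 32.3 to 40.4% in replicate 1 and 28.6 to 36.5% in replicate 2. II therefore had the highest left-part share of any nuclear chromosome in replicate 1 and the lowest in replicate 2, a description of 6 chromosomes that was not tested.

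Taken as both arms against the centre, the density ratio on II was 2.01 in replicate 1 and 0.720 in replicate 2. At 1.06, the series-wide ratio lay between the replicates. Its distance from 1 was smaller than the spread between the replicates (SD 0.915, n = 2), so no difference between the arms and the centre was established. Close peaks counted as 1 where under 1 kb apart left 1.65 in replicate 1 and 0.709 in replicate 2, so the directions were opposite with divided peaks joined as well.

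**Figure D1:**
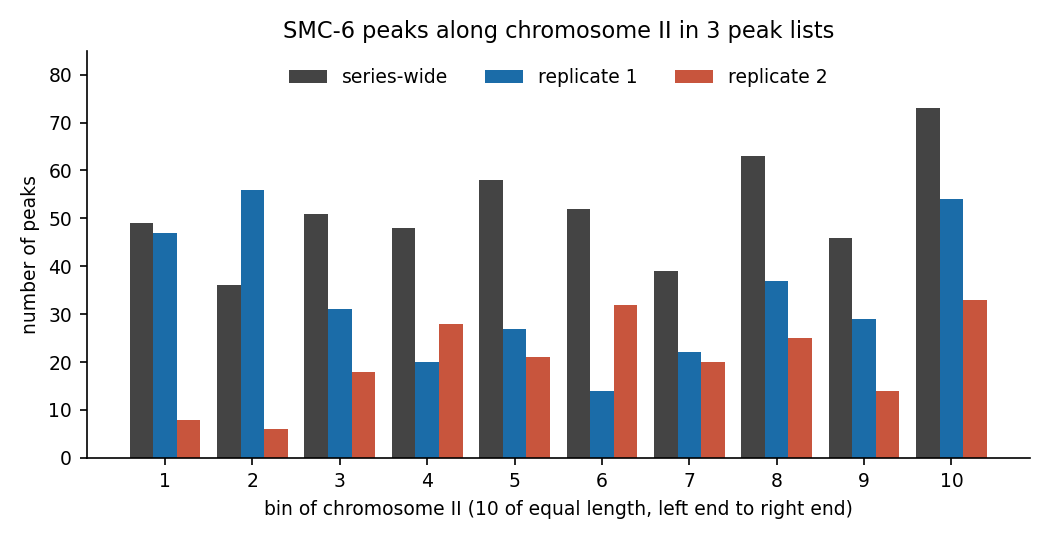
Number of SMC-6 peaks (vertical axis) in 10 bins of equal length from the left to the right end of II, in the series-wide list and in each replicate list. In the first 2 bins replicate 1 has 47 and 56 peaks and replicate 2 has 8 and 6, while all 3 lists are highest or near their highest in the last bin (73, 54 and 33).

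With II divided into 10 bins of equal length the contrast was sharpest at the left end. Up to position 3055875, the end of bin 2, replicate 1 had 103 peaks (30.6% of its II peaks, 25.7 to 35.8%) and replicate 2 had 14 (6.83%, 3.78 to 11.2%). With peaks under 1 kb apart counted as 1, replicate 1 had 59 there and replicate 2 still 14. The series-wide list had 85 peaks there (16.5%, 13.4 to 20.0%). Bin 6 showed the opposite, with 14 peaks in replicate 1 and 32 in replicate 2. The last bin was the richest in the series-wide list with 73 peaks and in replicate 2 with 33, and it had 54 in replicate 1, where bin 2 had 56.

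Part of the replicate 1 peaks in the left arm came as chains of neighbours. A run was defined, after the values were seen, as 4 or more peaks with gaps of at most 2 kb. Replicate 1 had 14 such runs on II, and 10 of them, with 52 of its 141 left-arm peaks, lay in the left arm. In 9 of those 10 replicate 2 had no peak at all. Of all 141 left-arm peaks of replicate 1, only 16 (11.3%) were overlapped by replicate 2, so such a lack was not particular to the runs. By the same rule the series-wide list had 12 runs, with 2 in the left arm, 3 in the centre and 7 in the right arm. Replicate 2 had 1 run, in the right arm. The lean of runs to the left arm was thus seen in replicate 1 only. The densest 50 kb of replicate 1 lay between 1961985 and 2009671, with 25 peaks of 61.6 to 765 in score. The series-wide list had 11 peaks in that stretch and replicate 2 had 1. Another left-arm run, from 694318 to 699141, reached a replicate 1 score of 2197 without any replicate 2 peak. The series-wide list had 5 peaks in it, of scores 2.88 to 14.45.

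Most II peaks were short and low. Of the 515, 154 (29.9%) were under 200 bp wide, 285 (55.3%) were from 200 to under 500 bp, 54 (10.5%) were from 500 to under 1000 bp and 22 (4.27%) were 1000 bp or wider. The narrowest, at 146 bp, was a width shared by 11 peaks. Median score was 4.495 in the narrowest band, 8.48 and 12.7 in the next ones and 19.0 in the widest. The highest scores did not belong to the widest peaks. The top score was 271 among peaks from 500 to under 1000 bp and 62.4 among those of 1000 bp or more. Over the 515 peaks score and width had a Spearman rho of 0.59, a description over peaks of 1 list that share their libraries. Within the left arm, centre and right arm rho was 0.56, 0.60 and 0.62.

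**Figure D2:**
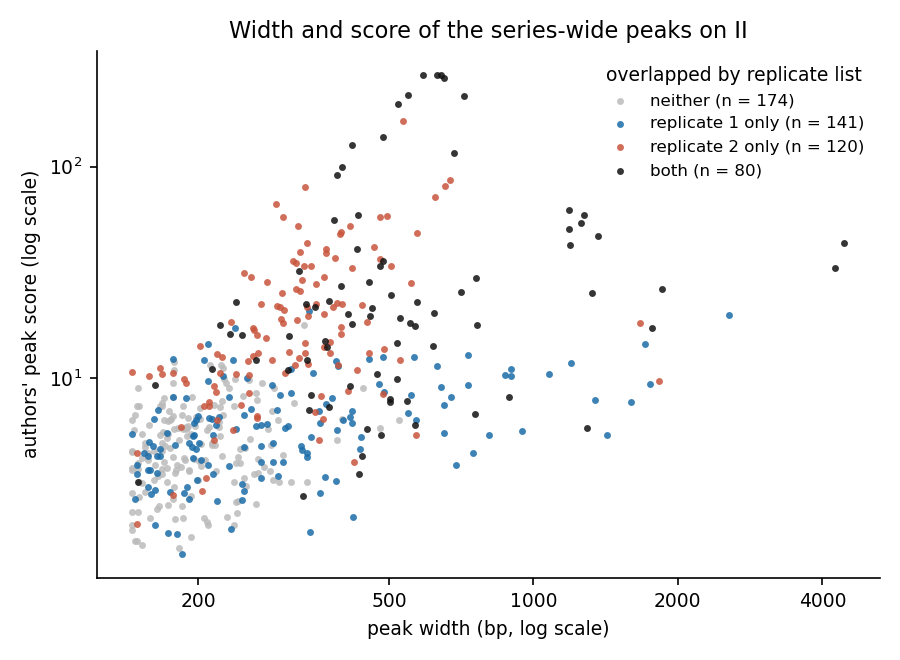
Width (horizontal axis, bp, log scale) against the authors' score (vertical axis, log scale) of the 515 series-wide peaks on II, coloured by the replicate lists that overlap them. The highest points, up to 271, are peaks of 419 to 718 bp, and the 22 peaks of 1000 bp and more stay at or below 62.4.

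Support by the replicate lists, as an overlap of at least 1 bp, was partial. On II 80 peaks (15.5%, 12.5 to 19.0%) were overlapped by both lists, 141 (27.4%, 23.6 to 31.4%) by replicate 1 only, 120 (23.3%, 19.7 to 27.2%) by replicate 2 only and 174 (33.8%, 29.7 to 38.1%) by neither. The share in both was 15.6 to 16.1% on I, III, IV and X and 23.2% on V. II thus had the lowest, but it was nearly level with all but V. Peaks in both had a median width of 483 bp and a median score of 20.2. Those with replicate 2 alone had 323.5 bp and 15.75, those with replicate 1 alone 270 bp and 5.66, and those with neither 189.5 bp and 4.71. A wider peak meets a 1 bp rule more easily, and the part of width in this was not tested.

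The kind of support changed along the chromosome. In the left arm 71 of 151 peaks (47.0%, 38.9 to 55.3%) had replicate 1 alone, against 20 of 165 (12.1%, 7.56 to 18.1%) in the centre and 50 of 199 (25.1%, 19.3 to 31.7%) in the right arm. Replicate 2 alone supported 22 peaks in the left arm (14.6%, 9.36 to 21.2%), 55 in the centre (33.3%, 26.2 to 41.1%) and 43 in the right arm (21.6%, 16.1 to 28.0%). Support by both was 9.93% (5.67 to 15.9%), 15.8% (10.6 to 22.2%) and 19.6% (14.3 to 25.8%). The left arm thus had the fewest doubly supported peaks, 15, and the right arm the most, 39, though the intervals of these shares overlap.

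Between the replicates themselves, 88 of 337 replicate 1 peaks on II (26.1%, 21.5 to 31.1%) were overlapped by replicate 2, and 81 of 205 replicate 2 peaks (39.5%, 32.8 to 46.6%) by replicate 1. For replicate 1 this share was 11.3% (6.63 to 17.8%) in the left arm, 41.8% (29.8 to 54.5%) in the centre and 34.1% (26.0 to 43.0%) in the right arm. For replicate 2 it was 40.0% (24.9 to 56.7%), 29.8% (20.3 to 40.7%) and 49.4% (38.1 to 60.7%). A sparse partner list offers fewer peaks to meet, and the part of density in these shares was not tested. For replicate 1 the share was lowest in the left arm, where replicate 2 was sparsest. The replicate 1 intervals of the centre and the right arm overlap. For replicate 2 the intervals of all parts overlap, so the order of its shares is not resolved. A series-wide peak lay on 197 of the 205 peaks of replicate 2 (96.1%, 92.5 to 98.3%) and on 219 of the 337 peaks of replicate 1 (65.0%, 59.6 to 70.1%).

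High series-wide scores went with replicate 2. The 515 peaks were put in 5 groups of equal size by score. Of the 103 peaks in the highest group, 101 (98.1%, 93.2 to 99.8%) were overlapped by replicate 2 and 48 (46.6%, 36.7 to 56.7%) by replicate 1. In the lowest group the order was turned, with 7 peaks (6.80%, 2.78 to 13.5%) overlapped by replicate 2 and 37 (35.9%, 26.7 to 46.0%) by replicate 1. No peak of the highest group lacked both (0 of 103, exact upper bound 3.52%), against 62 of 103 in the lowest. The highest score of any peak with replicate 1 alone was 20.7, and of any with replicate 2 alone 164. Among overlapped peaks, the series-wide score and the replicate score had a rho of 0.78 over 200 peaks for replicate 2 and 0.17 over 221 peaks for replicate 1. How the series-wide list was made from the libraries is not stated, and these values are descriptions. On the other nuclear chromosomes the same rho was 0.62 to 0.78 for replicate 2 and 0.26 to 0.38 for replicate 1, so the leaning to replicate 2 was seen on every nuclear chromosome.

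**Figure D3:**
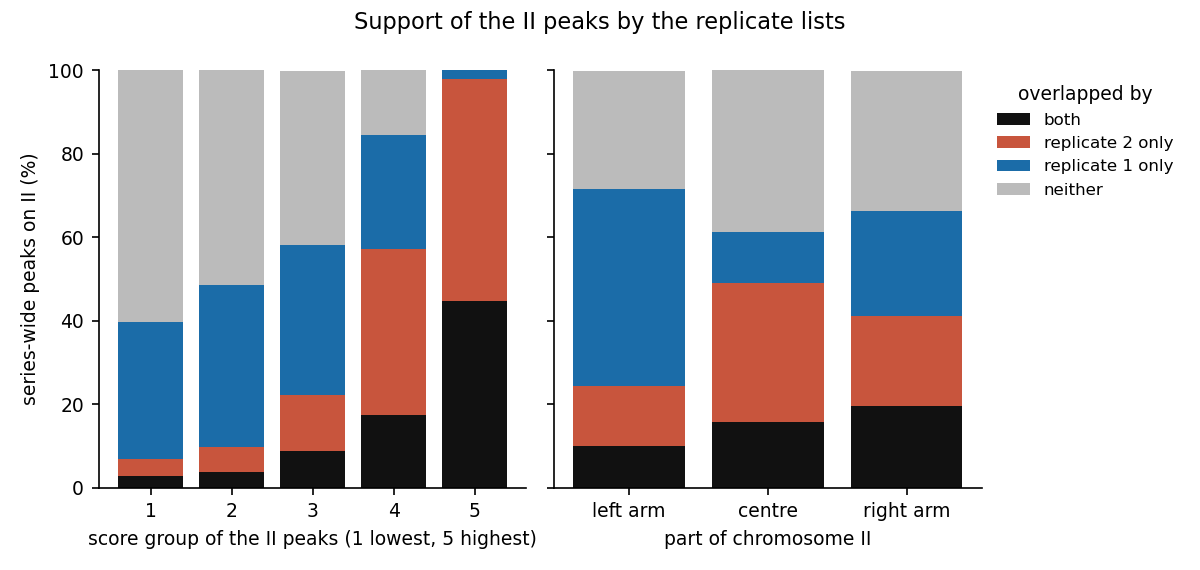
Share of the series-wide II peaks (vertical axis, %) overlapped by both replicate lists, by 1 or by neither, for 5 groups by score on the left (103 peaks each) and for the parts of II on the right. Peaks with neither make up 62 of 103 in the lowest group and none in the highest, and peaks with replicate 1 alone make up 47.0% in the left arm and 12.1% in the centre.

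Strong peaks were taken as the upper 10% of II by score, 52 peaks of 33.24 or more, where the next peak below had 32.23. This choice uses the score, so what follows describes it and tests nothing. Of the 52, 44 were sharp, under 1000 bp wide, with a median width of 429 bp and a median score of 56.9. They lay most often in the centre, 22, with 13 in the right arm and 9 in the left. Without the width limit the 52 strong peaks were nearly level between centre and right arm, at 23 and 20, with 9 in the left. Of all II peaks 32.0% lay in the centre, 38.6% in the right arm and 29.3% in the left. All 44 were overlapped by a replicate 2 peak, of median score 592 there, and 17 also by a replicate 1 peak, of median score 397. Of all 515 II peaks 200 (38.8%) were overlapped by replicate 2 and 221 (42.9%) by replicate 1. The replicate 1 count at the sharp peaks was thus near the share over all II peaks. The other 8 strong peaks were 1184 to 4442 bp wide, and all 8 were overlapped in both libraries. Of these 8, 7 lay in the right arm, and 6 were neighbours in a single run, described below. The medians at the 8 that follow therefore rest mainly on that stretch. In replicate 1 the median score at these 8 was 2772, against 397 at the 17 sharp sites it called, whereas in replicate 2 the medians were 1469 and 592.

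The 10 highest-scoring peaks of II were 419 to 718 bp wide, 7 of them in the centre and 3 in the left arm. Replicate 1 ranked the 9 it called between 7 and 65 on II, and replicate 2 ranked all 10 between 1 and 19. In replicate 2, 6 of them stood at 3100, a score that 7 II peaks shared, so their order there is not resolved. The peak missing from replicate 1 lay at 9054438 to 9054971, with a series-wide score of 164 and a replicate 2 score of 2427. In the left arm the highest peak, at 4701216 to 4701933, scored 216 series-wide, 899 in replicate 1 and 3100 in replicate 2. The highest of the right arm, at 10300858 to 10301257, scored 99.1, with only 51.45 in replicate 1 and 1302 in replicate 2. The right arm thus held none of the 10 highest peaks of II.

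Strong sharp peaks no more than 10 kb apart formed 5 groups with 12 members, and the other 32 stood alone. No group lay in the left arm, 3 lay in the centre and 2 in the right arm. All 12 members were overlapped in replicate 2 and 7 in replicate 1, against 38.8% and 42.9% of all II peaks. Since all 44 strong sharp peaks were overlapped in replicate 2, the count of 12 there followed from the choice by score. Of the 32 that stood alone, 10 were overlapped in replicate 1. The group with most members lay in the centre from 5346325 to 5358549 and spanned 12225 bp, and both libraries had a peak at each of its 4 members.

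In that group the first peak, at 5346325 to 5346975, had a score of 263 series-wide, 858 in replicate 1 and 3100 in replicate 2. Only 144 bp further, the peak at 5347120 to 5347604 scored 137.6, 397 and 1946 in the same lists. The third, at 5350135 to 5350776, scored 270.1, 889 and 3100. The second peak was thus lower than the first and the third in every list. After a gap of 7343 bp the fourth, at 5358120 to 5358549, was lower again, with 58.7, 102.9 and 596. Between the second and the third lay a weaker series-wide peak of score 2.21 and a weaker replicate 1 peak of score 56.7.

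The pair with the highest scores lay at the right of the centre, from 10033374 to 10035095. Its left member, 629 bp wide, scored 270.1 series-wide, 1447 in replicate 1 and 3100 in replicate 2. Its right member, at 10034508 to 10035095 and 588 bp wide, scored 271, 1129 and 3100. They were separated by 505 bp in the series-wide list, and each library called them as separate peaks too. The longest stretch of II without a series-wide peak, 258382 bp from 9774992 to 10033373, ended at this pair.

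The other 3 groups were pairs with weaker or no support in replicate 1. At 5622398 to 5631513 the members scored 80.8 and 86.8, with 894 and 985 in replicate 2 and no peak in replicate 1. At 10300858 to 10303968 the scores were 99.1 and 66.8, with 1302 and 449 in replicate 2, and replicate 1 called the first alone. At 14141892 to 14143990 the scores were 49.2 and 36.9, with 680 and 439 in replicate 2 and no peak in replicate 1. Over the 5 groups, the 7 members called in both libraries had series-wide scores of 58.7 to 271, and the 5 called in replicate 2 alone had 36.9 to 86.8.

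A different arrangement lay in the right arm, between 13817470 and 13827926. Here 6 peaks of 1184 to 1365 bp lay in a row, with midpoints 1526 to 2029 bp apart (mean 1828 ± 204 bp, SD over 5 distances). Their series-wide scores, from left to right, were 58.8, 50.9, 42.6, 62.4, 54.1 and 47.0. Between them the series-wide list also had 2 narrow, low peaks, of 149 bp with a score of 4.45 and of 150 bp with a score of 3.24. None of the 6 was sharp by the rule above, so the groups did not include them.

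Both libraries had the same 6 peaks. In replicate 1 they scored 3152, 2996, 2978, 2840, 2704 and 2691 from left to right and took ranks 1 to 6 among its 337 II peaks. In replicate 2 they scored 1156, 1341, 1410, 1589, 1529 and 1327 and took ranks 13 to 17 and 21. They were therefore the highest II peaks of replicate 1. In replicate 2 they stood below the highest sharp peaks but above the median of 592 of the 44 strong sharp sites.

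Their spacing was alike in the 3 lists. Midpoints were 1791 ± 129 bp apart in replicate 1 and 1802 ± 171 bp in replicate 2 (SD over 5 distances each). Peaks 2 and 3 of the run were the closest neighbours in every list, at 1526 bp series-wide, 1566 bp in replicate 1 and 1508.5 bp in replicate 2. To the right of the sixth, 2 narrower peaks followed in all 3 lists, the first of 621 bp and score 20.4 in the series-wide list. Replicate 1 gave this one a score of 695, and replicate 2 a score of 218.

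Runs of at least 4 peaks of 1000 bp or more with gaps of at most 2 kb were then counted on every nuclear chromosome. II had 1 in each of the 3 lists, always of these 6 peaks. On I there was 1 of 7 peaks in the series-wide list and 1 of 4 in replicate 2, on V 1 of 4 in each replicate list, on X 1 of 8 in the series-wide list, and on III and IV none. The series-wide runs on I and X thus had more members than that on II. This rule was set after the run had been seen and was not tested. No DNA sequence or gene annotation of this build was used here, so no gene is assigned to the run.

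**Figure D4:**
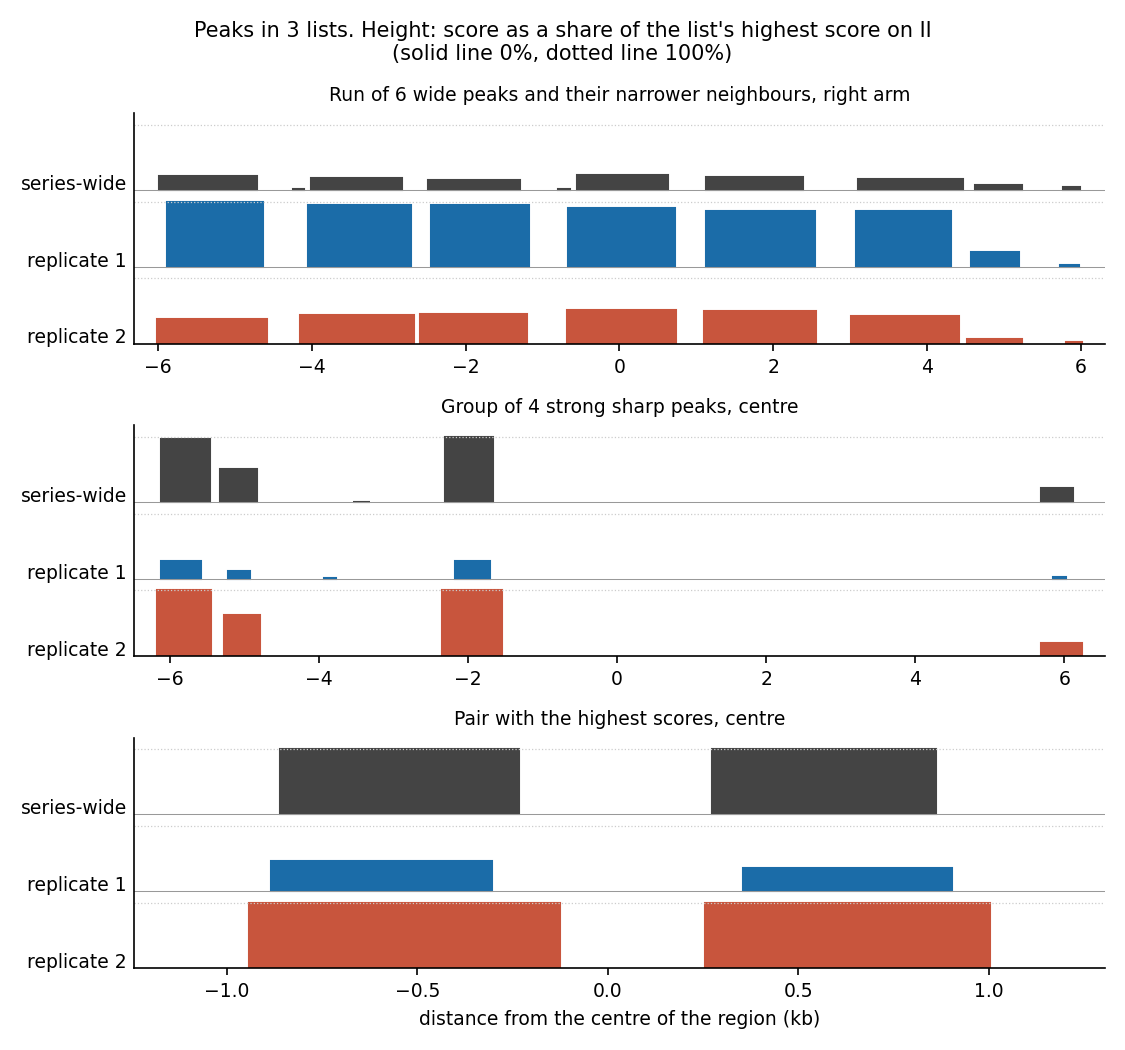
Peaks of each list around the run of 6 wide peaks (top), the group of 4 strong sharp peaks (middle) and the highest pair (bottom). The horizontal axis is the distance from the region's centre in kb, and bar height is the score as a share of the list's highest II score (solid line 0%, dotted line 100%). The 6 wide peaks are the tallest of replicate 1, with scores of 2691 to 3152, and are lower in the other lists, whereas the sharp peaks reach the top in the series-wide list and replicate 2.

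The 2 widest series-wide peaks of II were single peaks of over 4 kb in replicate 2. The one at 8288313 to 8292754 was 4442 bp wide with a series-wide score of 43.5. Replicate 2 called it as 1 peak of 4528 bp with a score of 3100, and replicate 1 as 2 peaks, the longer of 2869 bp with a score of 2177. The one at 11757373 to 11761631 was 4259 bp wide with a score of 33.2. Replicate 2 had 1 peak of 4311 bp there with a score of 1970, and replicate 1 had 2 peaks, of which the one with the longest overlap was 1930 bp wide with a score of 824.

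The third widest, in the left arm at 3466351 to 3468901, had replicate 1 support alone, a 3451 bp peak with a score of 2058 that ranked 10 on II. Its series-wide score was 19.8. The fourth, at 13984799 to 13986649, scored 26.5 and was overlapped by 2 peaks in each library. The fifth, at 12844219 to 12846043, scored 9.75 and had 2 replicate 2 peaks alone. Of all 22 peaks of 1000 bp or more, 12 were overlapped in both libraries, 8 in replicate 1 alone and 2 in replicate 2 alone. Of these 22, 12 lay in the right arm, 6 in the left and 4 in the centre. The 6 neighbours of the single run described above are among the 12 overlapped in both libraries and among the 12 in the right arm.

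Spacing on II mixed short and long gaps. Neighbouring peaks were a median of 15196 bp apart in the series-wide list, 17659.5 bp in that of replicate 1 and 42886.5 bp in that of replicate 2. Of 514 series-wide gaps 14.2% were no longer than 500 bp. The same held for 25.6% of 336 gaps in replicate 1 and 9.31% of 204 in replicate 2. Replicate 1 thus had both more peaks and a larger share of very short gaps than replicate 2. A neighbour no more than 10 kb away was found for 331 of the 515 series-wide peaks (64.3%), and for 58.9 to 67.8% on the other nuclear chromosomes. Counting peaks under 1 kb apart as 1 left 418 regions, and 48.8% of these had such a neighbour.

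By part, 65.6% of the left-arm peaks, 61.2% of those in the centre and 65.8% of those in the right arm had a neighbour within 10 kb in the series-wide list. In replicate 1 the shares were 69.5%, 46.3% and 66.7%. In replicate 2 they were 27.5%, 47.6% and 50.6%. Close neighbours were thus most frequent in the left arm in replicate 1 and least frequent there in replicate 2, as the densities were.

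**Figure D5:**
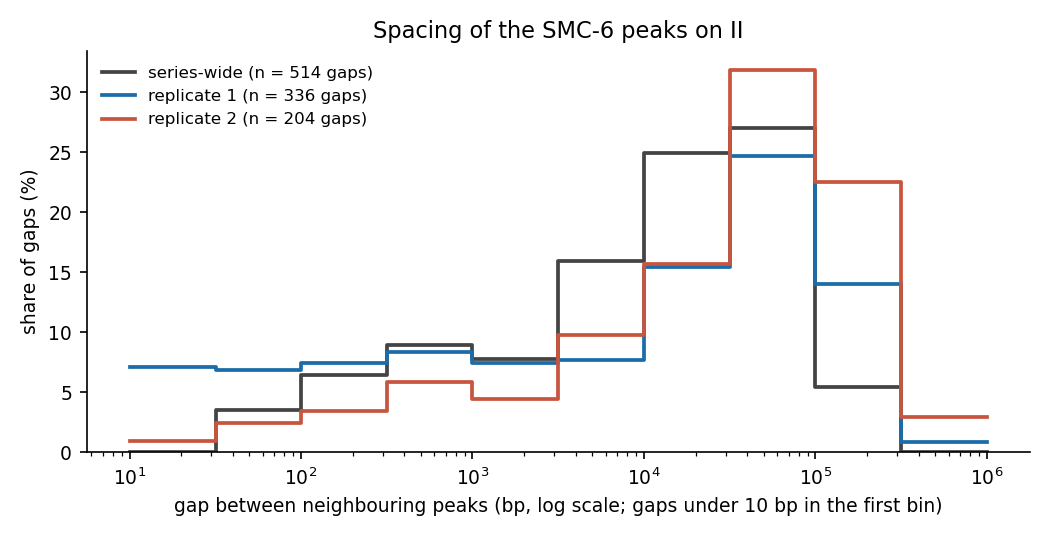
Distribution of gaps between neighbouring peaks on II in each list, as a share of all gaps (vertical axis, %) by gap length (horizontal axis, bp, log scale). Replicate 1 has the most gaps under 500 bp (25.6% against 9.31% in replicate 2), and in all 3 lists the commonest gaps lie between 31623 and 100000 bp.

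At its left end II carried a peak at the first base. It covered bases 1 to 428 with a score of 40.9 and was also called in both libraries, as 1 to 437 with a score of 1011 in replicate 1 and 1 to 532 with a score of 549 in replicate 2. The last series-wide peak covered 15279044 to 15279375 with a score of 17.8, and neither library had a peak there. Its last base was taken as the length of II, so its place at the right end is not a finding. The last replicate 1 peak lay 699 bases short of the last listed base and scored 72.6, and the last replicate 2 peak 113179 bases short with a score of 146. A series-wide peak at the first base was present on all 6 nuclear chromosomes, so the left-end peak was shared with the others.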

How the data were processed

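Peaks were analysed as deposited. Reads were aligned with BWA to build ce10, per the submitters' processing notes, and positions are on WormBase WS220, per the file headers, 1-based. Peaks were called with MACS (replicate lists) and MACS v2 (series-wide list), per the files' source field. Nothing used here states how the libraries were joined, which input served or how many reads there were. The deposited score of each peak, and its first and last base, were used as given by the authors.

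Groups and replicate numbers came from sample titles. The length of II was the last base of any listed peak, and a peak belonged to the part holding its midpoint. Overlap was at least 1 bp, with the longest overlap as partner. Work was done in Python 3.11.15 with pandas 2.3.3 and scipy 1.17.1, and functions were tested on simulated peaks. No test was run over peaks. Named peaks were the 10 highest, the 5 widest, the highest of each part, all group members and both end peaks; runs and the densest stretch were added after seeing values. The members and lists were chosen with earlier results of these data known. No genome or annotation of this build was used, so no sequence or gene is given.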

Additional observations from a re-analysis of the deposited data

How the results depend on the processing

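Of 50 alternative values, 37 stayed within the spread between the replicates, the counting interval or 1.5 times the count, and 13 did not. The replicate spread is wide where the libraries disagree, so staying within it shows little. With 1 replicate list alone, the arms to centre ratio was 0.720 to 2.01 (series-wide 1.06), median width 315 to 453 bp (260), the share with a neighbour within 10 kb 44.9 to 63.8% (64.3%) and the share of peaks on II 14.4 to 16.3% (15.2%). Among peaks in both lists median width was 483 bp. The series-wide ratio crossed 1 for the upper 50% by score (0.923), for merged peaks (0.922) and with borders at 5 and 12 Mb (0.932). The ratio stayed above 1 in replicate 1 (1.65 to 2.18) and below 1 in replicate 2 (0.636 to 0.756) under 5 alternatives each, chosen after seeing the data. The neighbour share was 44.8% for the upper 50% by score, 48.8% for merged peaks, 48.0% with a window of 5 kb and 79.4% with 20 kb. With 50% of both peaks required, overlap by both lists was 10.1% (15.5%), replicate 1 by replicate 2 was 17.5% (26.1%) and replicate 2 by replicate 1 was 28.8% (39.5%). Overlap by both was 27.4% for the upper 50% by score. Groups of strong sharp peaks numbered 10 with the upper 20% of scores, against 5, and 4 to 7 under the other alternatives. For all of these, the cause was not tested. Gene starts and non-coding RNA genes, and their alternatives, were not run. No paired analysis was possible because no result came from a test over samples.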

Other observations

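Some II peaks of the replicate lists had no counterpart in the series-wide list. In replicate 1 the highest of these lay at 12649430 to 12650495, 1066 bp wide with a score of 524 and rank 42 on II, and replicate 2 had no peak there either. In replicate 2 the highest was a 2500 bp peak at 6506170 to 6508669 with a score of 210, without a replicate 1 peak. A site at 2716840 to 2717184 in replicate 1 (score 321) was called in replicate 2 as well, at 2716834 to 2717068 (score 100.4), and still had no series-wide peak.

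The longest stretches of II without a peak lay in different places in the libraries. In replicate 1 it was 599191 bp, from 8460963 to 9060153 in the centre. In replicate 2 it was 674631 bp, from 2042203 to 2716833 in the left arm. Replicate 2 had several peaks inside the former, among them the strong one at 9054338 to 9055072.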
